A study of Mus musculus with 12 samples.

Results

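The subunits of the proteasome and of the COP9 signalosome were followed in newborn mouse brain. Every probe whose gene symbol began with Psma to Psmg or with Cops, followed by a digit, was taken, which gave 106 probes of 60 genes among the 45281 probes and 22491 gene symbols of the array. By place in the complex, 10 probes of 8 genes belonged to the 20S alpha ring, 13 of 7 genes to the constitutive 20S beta ring and 6 of 4 genes to its immune and thymic forms. The 19S cap was measured by 10 probes of the 6 ATPases and 23 probes of 11 non-ATPase subunits. A further 7 probes of 3 genes covered 19S assembly chaperones, 6 of 4 genes 20S assembly chaperones, 7 of 5 genes the activators, and 3 the inhibitor PI31 (*Psmf1*). The COP9 signalosome had 18 probes of 9 genes, without its first subunit, whose gene is named *Gps1*. The last 3 probes, of *Psmc3ip* and *Psme3ip1*, met the naming rule although their genes encode proteins that are not subunits.

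The 26S proteasome degrades proteins that carry ubiquitin. Its 19S cap binds, unfolds and feeds the substrate, and the beta subunits of the 20S barrel cut it. The COP9 signalosome resembles the lid of the 19S cap in its subunits, and it removes the ubiquitin-like protein NEDD8 from the cullins, which sets the activity of the cullin-RING ubiquitin ligases. In developing neurons the proteasome is known for its part in axon growth and in the turnover of synaptic proteins.

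The 12 arrays held RNA of whole brains from 1-day-old mice, 3 from each of 4 groups. WT 129 (129S6/SvEvTac) and WT B6 (C57BL6/J) mice carried no mutation. The *nm1054* 129 and *nm1054* B6 mice were homozygous for *nm1054*, a spontaneous deletion on chromosome 1 that removes *Cfap221*, *Dbi* (*Acbp*), *Steap3* and other genes in all cells. The *nm1054* B6 mice alone also carried a transgene with *Steap3*, so that the deletion and the transgene cannot be told apart on B6. In the strain comparison of *nm1054* brains both strains carry the deletion and B6 alone carries the transgene. The question was how expression differs between the strains, on which hydrocephalus of this mutant differs in severity, and between genotypes within a strain.

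The values are log2 and each probe was set to a median of 0 over the 12 arrays. A value shows how far a brain lay from the others at that probe, not how strongly the gene was expressed, so neither the levels of different genes nor the presence of tissue markers could be read. In whole brain, a change in the cells that hold a transcript and a change in the amount per cell cannot be told apart. Over all probes the array of WT B6 replicate 1 had the lowest median, -0.17, and that of WT 129 replicate 1 the highest, 0.11. The 3 probes of *Dbi* were lower in all *nm1054* brains (-4.24 to -1.07) than in all WT brains (1.07 to 3.87), as the labels state. A difference was called where limma gave a Benjamini-Hochberg adjusted p under 0.05 over all probes and a fold change over 1.5.

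The upstream sequences of the genes with a called difference are shown first, because several motifs are known from the promoters of proteasome genes. RefSeq promoter windows (GRCm38.p6, 250 bases before to 50 bases after the start) were found for 51 of the 60 genes. *Cops8*, which encodes a COP9 subunit, lies on the plus strand, with its window at chr1:90603175-90603474. *Psmb5*, *Psmc4* and *Psmd8*, which encode a catalytic beta subunit, a 19S ATPase and a 19S lid subunit, lie on the minus strand, with windows at chr14:54617946-54618245, chr7:28050043-28050342 and chr7:29180624-29180923. Capitals mark matches, on either strand, to the antioxidant response element TGACNNNGC, the GC box GGGCGG and the ETS motif CCGGAAG. The fifth gene with a called probe is *Cops5*.
Cops8: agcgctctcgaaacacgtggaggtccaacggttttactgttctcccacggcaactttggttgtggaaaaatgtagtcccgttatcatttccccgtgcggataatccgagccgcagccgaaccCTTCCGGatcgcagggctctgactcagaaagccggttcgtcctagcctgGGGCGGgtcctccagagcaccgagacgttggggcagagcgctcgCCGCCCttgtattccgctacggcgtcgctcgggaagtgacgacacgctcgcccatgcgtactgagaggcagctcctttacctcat
Psmb5: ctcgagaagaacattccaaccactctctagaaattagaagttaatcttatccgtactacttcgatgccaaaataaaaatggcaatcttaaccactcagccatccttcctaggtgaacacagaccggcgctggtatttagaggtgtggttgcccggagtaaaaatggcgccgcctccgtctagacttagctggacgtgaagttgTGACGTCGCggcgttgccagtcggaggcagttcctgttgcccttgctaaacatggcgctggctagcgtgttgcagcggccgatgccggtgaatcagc
Psmc4: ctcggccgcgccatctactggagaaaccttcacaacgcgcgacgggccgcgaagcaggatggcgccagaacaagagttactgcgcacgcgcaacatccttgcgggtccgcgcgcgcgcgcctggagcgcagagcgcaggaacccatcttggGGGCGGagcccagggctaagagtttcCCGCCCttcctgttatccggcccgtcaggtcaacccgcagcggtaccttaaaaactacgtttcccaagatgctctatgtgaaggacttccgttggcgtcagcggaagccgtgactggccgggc
Psmd8: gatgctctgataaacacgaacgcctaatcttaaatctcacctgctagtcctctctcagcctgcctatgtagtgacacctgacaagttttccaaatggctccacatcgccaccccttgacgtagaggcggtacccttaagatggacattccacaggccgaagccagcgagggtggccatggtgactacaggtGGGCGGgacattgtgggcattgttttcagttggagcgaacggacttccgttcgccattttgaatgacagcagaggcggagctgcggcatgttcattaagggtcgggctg
The single TGACNNNGC match in these 4 windows is in *Psmb5*. The ETS motif is in *Cops8*, and GC boxes are in *Cops8* (2), *Psmc4* (2) and *Psmd8* (1).

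Over the 51 windows, the ETS motif was present in 19 (37.3%), against 9.12% of the windows of all 27025 genes and 11.9% of those of protein-coding genes. GC boxes were in 52.9% of the windows, against 35.9% of all and 46.3% of the protein-coding ones. The antioxidant response element was no more frequent in these windows than elsewhere, at 11.8% against 12.5% of all and 13.2% of the protein-coding ones. It was in 6 of 41 proteasome windows and 0 of 8 COP9 windows. The CCAAT box was in 31.4%, against 37.9% of all and 39% of the protein-coding ones, and TATAAA in 7.84%, against 14.2% and 13.3%. The windows had a median GC content of 57.3%, against 52.7% over all genes, and a match is a run of letters, not a known site.

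Between strains, 5 of the 106 probes were called in WT brains (4.72%), against 3.33% of all probes. In *nm1054* brains 5 were called as well (4.72%), against 3.27% of all probes. They were the same 5 probes, of *Cops8*, *Psmd8*, *Psmc4*, *Psmb5* and *Cops5*, and each was lower in 129 than in B6 brains. Of all probes, 1.66% were called lower in 129 WT brains and 1.67% higher. In *nm1054* brains the shares were 1.88% and 1.39%. At an adjusted p under 0.05 and any fold, 6 members passed in each comparison (5.66%), against 7.79% of all probes for WT and 6.43% for *nm1054*. With 3 brains in each group, an exact permutation test of a single probe cannot go below p = 0.1. The plot of strain differences by subcomplex sets these 5 probes apart from the other 101, whose differences lay between -0.35 and 0.51 in WT and between -0.40 and 0.42 in *nm1054* brains.

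**Figure D1:**
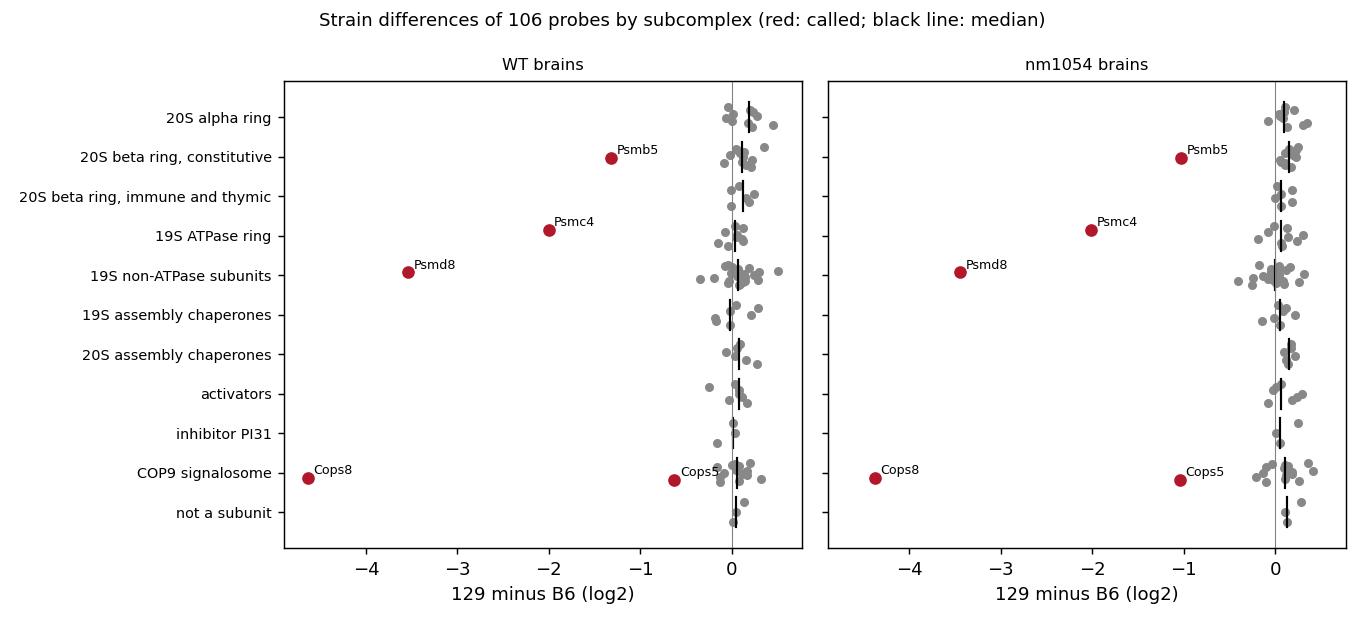
Difference between 129 and B6 brains (log2, x axis) for each of the 106 probes, by subcomplex (rows), in WT (left) and *nm1054* brains (right). Red points are called and named, grey points are not called, and black lines are medians. The 5 called probes, from *Cops5* (-0.62 in WT) to *Cops8* (-4.63 in WT), lie to the left in both panels, while every subcomplex median lies near 0.

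*Cops8* encodes the smallest of the classical COP9 subunits, one that the complex needs for its assembly. Its only probe, ILMN_1218868, read -2.48, -2.29 and -2.19 in WT 129 brains and -2.12, -2.26 and -2.30 in *nm1054* 129 brains. In WT B6 brains it read 2.40, 2.25 and 2.30, and in *nm1054* B6 brains 2.12, 2.12 and 2.22. All 6 B6 brains lay above all 6 brains of 129, with a wide gap and little spread within a strain. The value was 24.8-fold lower in WT 129 than in WT B6 brains (-4.63, SE 0.11, adjusted p = 6.6e-16). In *nm1054* brains it was 20.8-fold lower (-4.38, adjusted p = 1.46e-15). In each comparison this probe ranked 8 from the lowest of all 45281. With a single probe, the gene had no second measurement on the array.

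*Cops5* (also known as *Csn5* or *Jab1*) is the metalloprotease that cleaves NEDD8 from cullins. Its probe ILMN_1218536 read -0.07, -0.34 and -0.59 in WT 129, and 0.07, 0.41 and 0.39 in WT B6 brains. In *nm1054* 129 brains it read -0.46, -0.40 and -0.58, and in *nm1054* B6 brains 0.52, 0.67 and 0.49. The strains did not overlap within either genotype, although the highest WT 129 and the lowest WT B6 brain were close. The difference was -0.62 in WT (1.54-fold, SE 0.14, adjusted p = 0.00633) and -1.04 in *nm1054* brains (2.06-fold, adjusted p = 2.53e-05). The call in WT brains stood close to the threshold of fold change. Without WT 129 replicate 3 the difference was -0.50, without WT B6 replicate 2 it was -0.56 and without WT B6 replicate 3 it was -0.58, each below 1.5-fold. By the methods' t-test, rerun here on all probes, the WT difference was not called (adjusted p = 0.226). The other probes of *Cops5* differed less in the same direction, ILMN_1249524 by -0.08 in WT and -0.13 in *nm1054* brains, and ILMN_2662124 by -0.16 and -0.10. Both separated the WT strains without overlap, and with each array centred their differences were -0.21 and -0.23 at ILMN_1249524 and -0.29 and -0.20 at ILMN_2662124. Neither was called, and the called probe carries no gene identifier in the annotation.

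Of the remaining COP9 probes none was called between strains. *Cops6* encodes the MPN-domain partner of *Cops5*. Its probe ILMN_2618793 was 0.09 ± 0.00 (SD, n = 3) in WT 129, 0.05 ± 0.07 in *nm1054* 129, -0.07 ± 0.09 in WT B6 and -0.37 ± 0.08 in *nm1054* B6 brains. The difference between strains of 0.42 in *nm1054* brains had an adjusted p of 0.0201 and remained under 1.5-fold, and it was 0.17 (adjusted p = 0.31) in WT brains. With each array centred on its median the *nm1054* difference was 0.32 (adjusted p = 0.106). *Cops7a*, 1 of 2 alternative forms of the same subunit, was read by 4 probes that differed from each other, from -0.12 to 0.20 in WT and from -0.21 to 0.36 in *nm1054* brains. *Cops2*, *Cops3*, *Cops4*, *Cops7b* and *Cops9* differed by -0.12 to 0.33 in WT brains and by -0.10 to 0.19 in *nm1054* brains.

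In the 19S cap, *Psmd8* encodes the lid subunit Rpn12. Its probe ILMN_2678019 read -1.75, -1.90 and -1.64 in WT 129 and 1.56, 2.01 and 1.76 in WT B6 brains. In *nm1054* 129 brains it read -1.48, -2.09 and -2.25, and in *nm1054* B6 brains 1.48, 1.56 and 1.48. Again all brains of B6 lay above all brains of 129. The value was 11.6-fold lower in WT 129 (-3.54, SE 0.16, adjusted p = 6.13e-12) and 10.9-fold lower in *nm1054* 129 brains (-3.45, adjusted p = 9.5e-12). The other *Psmd8* probe, ILMN_2546047, showed no such separation, with differences of 0.14 (adjusted p = 0.49) and 0.32 (adjusted p = 0.16). Its strains overlapped in both genotypes, so the probes of *Psmd8* lay 3.68 log2 units apart in the WT and 3.76 in the *nm1054* comparison.

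*Psmc4* encodes the ATPase Rpt3. Its probe ILMN_2728516 read -0.74, -0.86 and -1.0 in WT 129 and 0.74, 1.44 and 1.22 in WT B6 brains, and -1.24, -0.94 and -0.96 in *nm1054* 129 and 0.86, 1.02 and 1.01 in *nm1054* B6 brains. The strains were apart in both genotypes. The value was 4.0-fold lower in WT 129 (-2.0, SE 0.15, adjusted p = 1.11e-08) and 4.03-fold lower in *nm1054* 129 brains (-2.01, adjusted p = 9.99e-09). The second probe, ILMN_2632349, differed by 0.05 (adjusted p = 0.83) and 0.14 (adjusted p = 0.51), and the called probe has no gene identifier in the annotation. The other 5 ATPases of the ring, *Psmc1*, *Psmc2*, *Psmc3*, *Psmc5* and *Psmc6*, had no called probe.

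**Figure D2:**
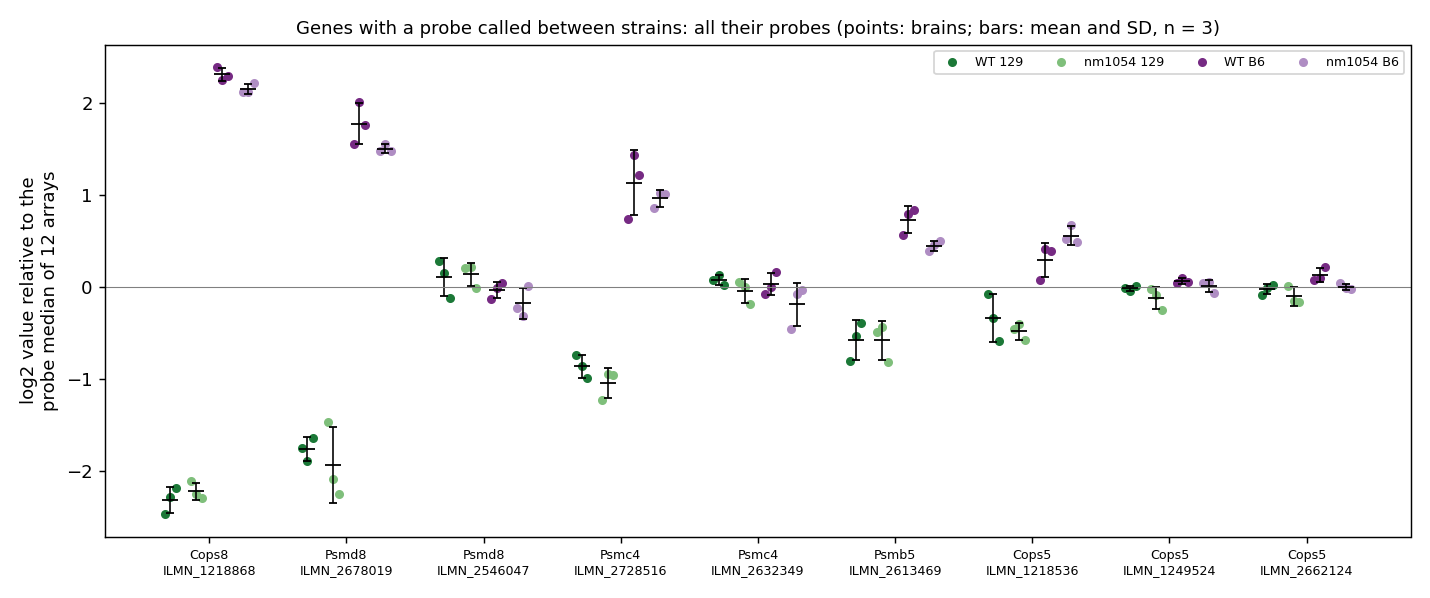
Value of each brain (log2, relative to the median of the probe over 12 arrays, y axis) for all probes of the 5 genes with a called strain difference (x axis). Points are brains, colours are the 4 groups, and bars give the mean and SD of 3 brains. The strain means lie farther apart at 1 probe of *Psmd8*, *Psmc4* and *Cops5* than at the other probes of the same gene, and all 3 *Cops5* probes separate the WT strains.

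*Psmd2* encodes Rpn1, a scaffold of the base that receives ubiquitin shuttle factors. Its probe ILMN_2682947 read -0.55, -0.59 and -0.28 in WT B6 brains, below all other brains, which read between -0.15 and 0.19. The difference between strains was 0.51 in WT (SE 0.12, adjusted p = 0.0139, under 1.5-fold) and 0.00 in *nm1054* brains. Without WT 129 replicate 2 or WT B6 replicate 3 it was 0.61 and was called, and after quantile normalization it was 0.34 (adjusted p = 0.122). The second probe, ILMN_2682945, read 0.03, -0.52 and -0.41 in WT B6 brains, where replicate 1 overlapped the other groups. Its differences were 0.30 (adjusted p = 0.18) and -0.04 (adjusted p = 0.87). The other non-ATPase subunits, apart from *Psmd8*, differed by less than 1.5-fold in both genotypes.

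In the 20S core, *Psmb5* encodes the constitutive beta subunit with chymotrypsin-like activity. Its only probe, ILMN_2613469, read -0.81, -0.54 and -0.39 in WT 129 and 0.57, 0.79 and 0.84 in WT B6 brains. In *nm1054* 129 brains it read -0.49, -0.44 and -0.82, and in *nm1054* B6 brains 0.39, 0.45 and 0.50. The strains were apart, by 2.49-fold in WT (-1.31, SE 0.13, adjusted p = 9.32e-07) and 2.04-fold in *nm1054* brains (-1.03, adjusted p = 2.43e-05). The methods' t-test was rerun here on all probes, without the paper's filter on detection calls. By this rerun *Psmb5* just missed the threshold in both genotypes (adjusted p = 0.0529 and 0.0508). The paper's own list of WT strain differences, made after that filter, includes this *Psmb5* probe as lower in 129. It also includes the called probes of *Cops8*, *Psmd8* and *Psmc4*. *Psmb8*, the subunit that takes the place of *Psmb5* in the immunoproteasome, was read by a pair of probes. They differed by -0.01 and 0.25 in WT and by 0.06 and 0.06 in *nm1054* brains, none of them called.

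The other catalytic positions did not separate the strains by 1.5-fold. *Psmb6*, the caspase-like subunit, differed by 0.06 in WT and 0.23 in *nm1054* brains, and its immune counterpart *Psmb9* by 0.19 (adjusted p = 0.3) and 0.19 (adjusted p = 0.35). The 4 probes of *Psmb7*, the trypsin-like subunit, lay close together, at 0.11 to 0.21 in WT and 0.07 to 0.18 in *nm1054* brains. The probes of *Psmb10*, its immune counterpart, differed by -0.01 and 0.08 in WT and by 0.19 and 0.02 in *nm1054* brains. *Psmb11*, the thymic subunit, differed by 0.16 and -0.00. In the alpha ring the largest WT difference was that of *Psma8*, the alpha subunit known from testis, at 0.45 in WT (SE 0.15, adjusted p = 0.0647) and 0.31 in *nm1054* brains (adjusted p = 0.23). After quantile normalization the WT value was 0.29 (adjusted p = 0.237). In *nm1054* brains *Psma7* ILMN_2630328 differed more, by 0.35 (adjusted p = 0.0767) and without overlap. The second *Psma7* probe, ILMN_2793488, differed there by 0.21 (adjusted p = 0.285), and its strains overlapped.

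Among the regulators no probe was called. *Psme3*, the nuclear activator PA28 gamma, differed by 0.08 in WT and 0.29 (adjusted p = 0.148) in *nm1054* brains. *Psmg4*, a chaperone of 20S assembly, differed by 0.27 and 0.14, and its WT B6 brains were spread from -0.67 to 0.07. *Psmd5*, a chaperone of the 19S base, differed by 0.21 and 0.22 at ILMN_2672798, with a spread of -0.54 to 0.35 in WT B6 brains, and by 0.29 and 0.12 at ILMN_2765213. These spreads within 1 group exceeded the differences between groups. *Psmf1* ILMN_3094023 read -0.92, -0.23 and 0.53 in the 3 *nm1054* B6 brains, with the highest pooled SD of all 106 probes (0.384), and the median over the probes was 0.125. Its difference of 0.25 in *nm1054* brains was not called, but without *nm1054* B6 replicate 3 it was 0.62 and passed (adjusted p = 0.0477).

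Probes of 1 gene were compared as well. Of the 34 genes with several probes, *Psmd8* and *Psmc4* were the 2 whose probes lay over 1 log2 unit apart in their strain difference. Leaving out these and *Cops5*, the gap in the other 31 genes was at most 0.42 in the WT and 0.57 in the *nm1054* comparison. The latter was that of *Cops7a*, and the gap of *Psmc6* was 0.43 in *nm1054* brains. The median of the gaps over the 34 genes was 0.12 and 0.13, as large as the median size of the strain difference over the 106 probes, 0.12 in both genotypes. With the probes of each gene averaged, *Psmc4* (-0.98 in WT) and *Psmd8* (-1.70 in WT) were called in both genotypes and *Cops5* in neither. The means of *Psmc4* and *Psmd8* each combine a called probe with one that showed no called difference. *Cops8* and *Psmb5*, with a single probe each, kept their values under averaging and stayed called. The sequences of the probes were not analysed here, and differences in probe binding between the strains were not tested.

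The genes beside the called ones on the chromosome were read as well. Of 16 probes of 8 neighbouring protein-coding genes 1 was called, that of *Ackr3*, a chemokine receptor beside *Cops8*, which was higher in WT 129 brains (0.68, adjusted p = 0.00938) and not called in *nm1054* brains (0.41, adjusted p = 0.125). The difference of *Ackr3* ran opposite to that of *Cops8*, and 3.33% of all probes were called in WT brains. The other neighbouring probes were not called, among them that of *Psmb11* beside *Psmb5*. Both neighbours of *Psmc4* had no probe here.

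As a whole the proteasome and COP9 probes differed little between strains. Their median difference was 0.06 in WT brains, against 0.15 over all probes, and 0.09 in *nm1054* brains, against 0.12. The shift over all probes came with the array medians, and with each array centred the medians of the 106 probes were -0.07 and -0.00. An unadjusted p under 0.05 was reached by 12 probes in WT brains (11.3%, against 26.7% of all) and 17 in *nm1054* brains (16%, against 22.2%). All brains of a strain lay apart from all of the other for 20 of the 106 probes in WT (18.9%, against 29.4% of all) and 26 in *nm1054* brains (24.5%, against 29.3%). Over both directions together these shares were below those of the whole array. The shares lower in 129 were not, with 6.6% of the members at an unadjusted p under 0.05 in WT brains against 4.26% of all probes, and 9.43% without overlap against 5.59%. In *nm1054* brains they were 5.66% against 4.93% and 7.55% against 6.07%. With each array centred, an unadjusted p under 0.05 was reached by 17 members in WT brains (16%, against 18.5% of all) and 13 in *nm1054* brains (12.3%, against 17.1%). Of these members, 15 of 17 in WT and 11 of 13 in *nm1054* brains were lower in 129. The share of all probes by direction was not counted on this scale. None of these differences in share was tested. The median pooled SD within groups was 0.125 for the members and 0.161 over all probes.

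The subcomplexes lay close together. In WT brains their median strain differences ran from -0.02 in the 19S assembly chaperones to 0.19 in the alpha ring. In *nm1054* brains they ran from 0.00 in the non-ATPase subunits to 0.16 in the 20S assembly chaperones. In the non-ATPase subunits the probe medians, taken relative to the array median, were 0.02 to 0.03 in WT B6 and 0.03 to 0.17 in *nm1054* B6 brains, and -0.07 to -0.02 and -0.09 to -0.03 in the 129 groups. On this scale the strains did not overlap there in either genotype. In WT brains they were also apart, by small differences, in the COP9 signalosome (0.03 to 0.20 in B6, -0.08 to -0.00 in 129) and the ATPase ring (0.08 to 0.15 and -0.10 to 0.04). The same held for the 19S assembly chaperones (-0.00 to 0.21 and -0.09 to -0.03) and *Psmf1* (-0.01 to 0.20 and -0.11 to -0.04). The medians of all 106 probes ran from 0.03 to 0.09 in WT B6 and from -0.05 to 0.00 in WT 129 brains, while those of the *nm1054* groups overlapped. Without subtraction of the array median the strains overlapped in each of these sets, as in the COP9 signalosome (0.01 to 0.04 in both WT groups). In WT brains the alpha ring was then apart, with 129 higher (0.04 to 0.15, against -0.13 to 0.00 in B6). The immune and thymic beta subunits were apart as well (0.04 to 0.12 in 129, -0.07 to -0.00 in B6). The separation thus depended on the scaling, and these per-brain medians were not tested.

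**Figure D3:**
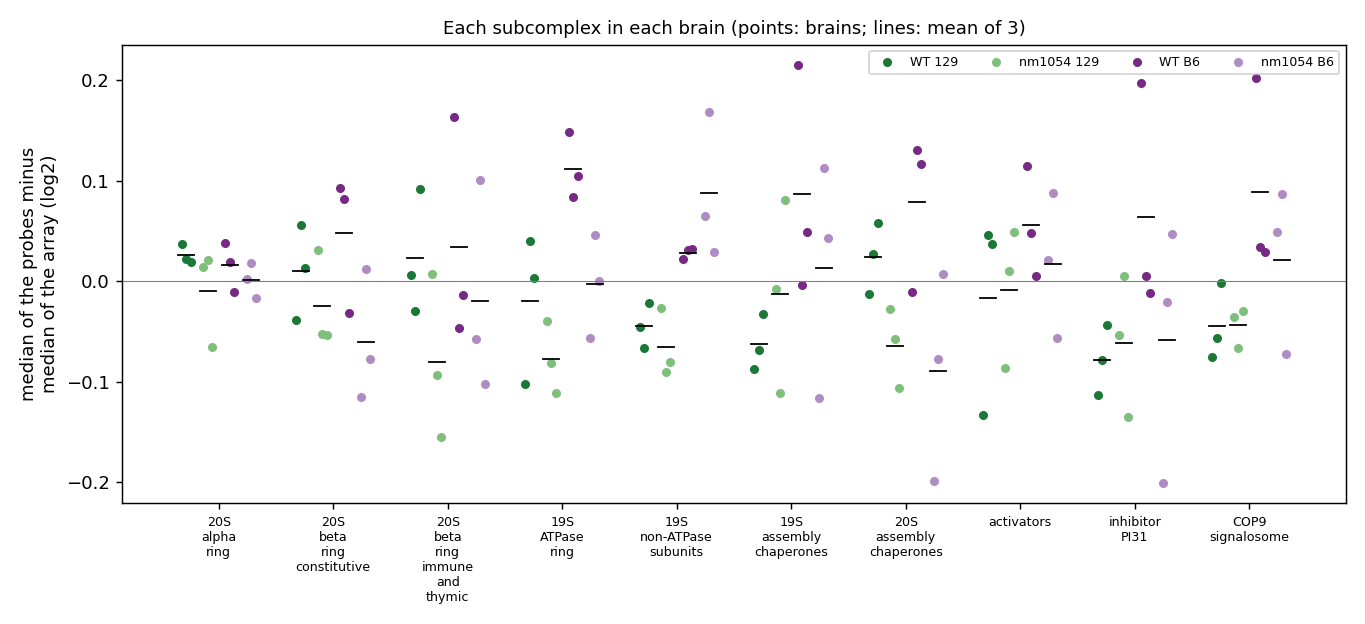
Median of the probes of each subcomplex minus the median of the array (log2, y axis) in each brain, by subcomplex (x axis). Points are brains, colours are the 4 groups, and lines are means of 3 brains. On this scale the strains do not overlap in 5 of the 10 subcomplexes in WT and in 1 in *nm1054* brains. The medians lie between -0.20 and 0.21.

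Genes that work with these complexes were read beside them. Among 11 probes of 6 measured partners of the proteasome outside the naming rule, *Usp14* alone was called. This gene encodes the deubiquitinase that trims ubiquitin chains on the 19S cap. It was higher in 129 at ILMN_2562107, by 0.76 in WT (SE 0.11, adjusted p = 0.000125) and 0.85 in *nm1054* brains (adjusted p = 3.11e-05), opposite to the called subunits. Of 8 genes of ubiquitin supply and shuttling, *Ubqln2*, a shuttle factor, was called in WT brains (0.59, adjusted p = 0.0197). None was called among 8 regulators of proteasome gene transcription, 26 COP9 partners and neddylation genes and 9 subunits of eIF3, a translation factor built from related subunits. The median differences of these 5 lists ran between 0.05 and 0.18 in WT brains, against 0.15 over all probes. The lowest, of the COP9 partners and neddylation genes, lay -0.11 from that of all probes. In *nm1054* brains the 5 medians ran between 0.06 and 0.18, against 0.12.

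Some markers of cell types were called between strains. In the interferon and antigen presentation list, *B2m*, the light chain of MHC class I, was lower in 129 in both genotypes (-0.65 and -0.62), and *Cd74* (0.77) and *Gbp3* (0.72) were higher in *nm1054* 129 brains, out of 19 genes. The choroid plexus list lay lower in 129 (median -0.21 in WT and -0.33 in *nm1054* brains, -0.36 and -0.45 relative to all probes, 9 genes). *Aqp1* and *Folr1* were called in WT brains only and *Otx2* in *nm1054* brains only. The median of this list relative to the array was -0.20 to -0.04 in WT 129, -0.29 to -0.12 in *nm1054* 129, 0.06 to 0.28 in WT B6 and 0.04 to 0.22 in *nm1054* B6 brains. The progenitor list lay higher in 129 (median 0.27 and 0.26, which is 0.12 and 0.13 above that of all probes, 11 genes), with *Birc5* called. Relative to the array the strains overlapped slightly for this list in *nm1054* brains (0.01 to 0.12 in 129, -0.16 to 0.01 in B6). Single genes were called in other lists, not all in the same direction. Of 6 red blood cell genes, *Hbb-b1* was lower in 129 in both genotypes (-2.81 and -3.03 at its called probes in WT). *Hbb-b2* was higher (3.26 and 3.19), and *Alas2* (0.71) was called in *nm1054* brains alone. Of 12 endothelial and pericyte genes, *Flt1* was lower (-0.65 and -0.63) and *Rgs5* higher (1.13 and 0.86), and *Vtn* (0.59) was called in *nm1054* brains alone. Of 14 microglial genes, *Fcer1g* was lower (-3.61 and -3.89). The median difference of this list was -0.12 in WT and -0.16 in *nm1054* brains relative to all probes. Relative to the array its median was -0.11 to -0.04 in WT 129 and 0.06 to 0.10 in WT B6 brains. It was -0.10 to -0.03 in *nm1054* 129 and -0.00 to 0.10 in *nm1054* B6 brains, so the strains did not overlap in either genotype. None was called among 14 neuronal, 12 radial glial and astrocytic, and 9 oligodendrocyte lineage genes. Over all 14 lists of partners and markers, 5 of 300 probes were called higher and 8 lower in WT 129 brains, where 3.33% of all probes were called. In *nm1054* brains 9 were higher and 6 lower, where the share of all probes was 3.27%. The part of these markers in the differences of the 106 probes was not tested.

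Between genotypes limma called none of the 106 probes on either background, nor did the methods' t-test. On B6, 8 of all probes were called (0.0177%), and on 129, 9 (0.0199%). An unadjusted p under 0.05 was reached by 12 members on B6 (11.3%, against 6.12% of all probes), 10 of them lower in *nm1054* (9.43%, against 3.43%). On 129 there were 0, against 2.65% of all probes. The plot of genotype differences by subcomplex shows that the values on B6 lay between -0.37 and 0.51 and those on 129 between -0.25 and 0.15.

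**Figure D4:**
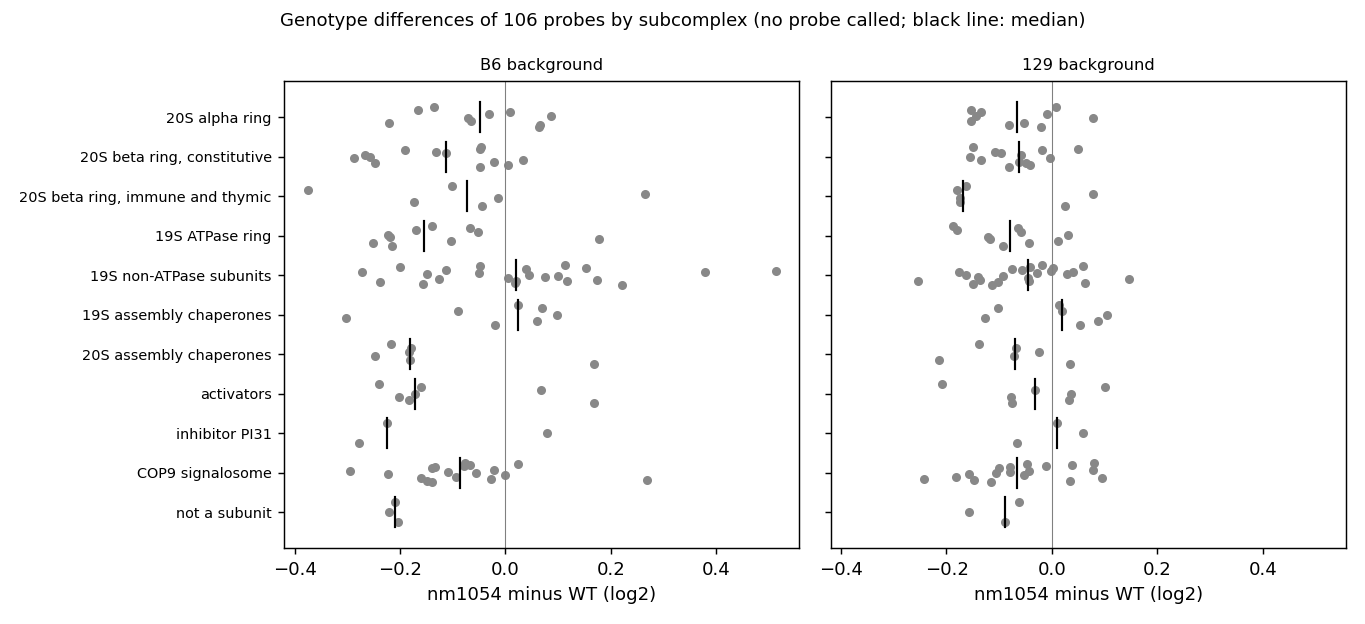
Difference between *nm1054* and WT brains (log2, x axis) for each of the 106 probes, by subcomplex (rows), on B6 (left) and on 129 (right). Points are probes and black lines are medians. No probe is called. On B6 most COP9, ATPase and constitutive beta probes lie below 0 while 14 of the 23 non-ATPase probes lie above it.

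On B6 most of the 106 probes lay lower in *nm1054* brains by small amounts. The median difference was -0.08, against -0.02 over all probes, and 74 of 106 probes were below 0 (69.8%, against 56% of all). This held for 16 of 18 COP9 probes, 9 of 10 ATPase probes and 11 of 13 constitutive beta probes, but for 9 of 23 non-ATPase probes. The groups did not overlap for 20 probes (18.9%, against 9.22% of all). For 17 probes all *nm1054* B6 brains lay below all WT B6 brains (16%, against 5.92% of all probes), and for 3 they lay above (2.83%, against 3.3%). The count of 12 at an unadjusted p under 0.05 depended on the arrays and the scaling. It was 25 without WT B6 replicate 1 (23.6%, against 13.2% of all), 28 with array weights (26.4%, against 15%) and 15 with each array centred (14.2%, against 7.6%). Without WT B6 replicate 2 it was 5 (4.72%, against 4.9%). Without *nm1054* B6 replicate 1 it was 6 (5.66%, against 4.18%) and without replicate 2 it was 7 (6.6%, against 5.04%). Without replicate 3 it was 13 for WT B6 (12.3%, against 7.16%) and 14 for *nm1054* B6 (13.2%, against 7.74%). After quantile normalization it was 5 (4.72%, against 5.66%) and with the B6 arrays fitted alone 4 (3.77%, against 3.5%), so that the members' share was then near that of the array. The interferon and antigen presentation list had a median of -0.15 on B6, with none of its 19 genes called, and its part in these values was not tested.

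On 129 the median was -0.06, against -0.05 over all probes, and 77 of 106 probes were below 0 (72.6%, against 65.5% of all). The groups did not overlap for 10 probes (9.43%, against 11.1% of all), 7 of them lower in *nm1054*. The smallest unadjusted p-values belonged to the ATPase *Psmc2* (ILMN_2918018, -0.19, SE 0.11), *Cops7a* (ILMN_1219146, -0.18, SE 0.11) and the lid subunit *Psmd6* (ILMN_1241910, -0.25, SE 0.16). All had an adjusted p of 1.

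The largest genotype difference on B6 was that of *Psmd2*, whose WT B6 brains also enter the strain comparison above. ILMN_2682947 was higher in *nm1054* B6 (0.09, 0.12 and -0.09) than in WT B6 brains, by 0.51 (SE 0.12, adjusted p = 0.418), and ILMN_2682945 by 0.38 (SE 0.14, adjusted p = 0.766). On 129 they differed by -0.00 and 0.04. *Psmb10*, an immunoproteasome subunit, read -0.38, -0.23 and -0.19 in *nm1054* B6 and 0.20, -0.04 and 0.15 in WT B6 brains at ILMN_2757870 (-0.37, SE 0.12, adjusted p = 0.662). Those groups did not overlap, but its second probe, ILMN_2914843, differed by -0.10 with overlap. *Cops6* read -0.45, -0.35 and -0.30 in *nm1054* B6 and 0.02, -0.16 and -0.08 in WT B6 brains (-0.29, SE 0.11, adjusted p = 0.766), and -0.04 was its difference on 129.

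**Figure D5:**
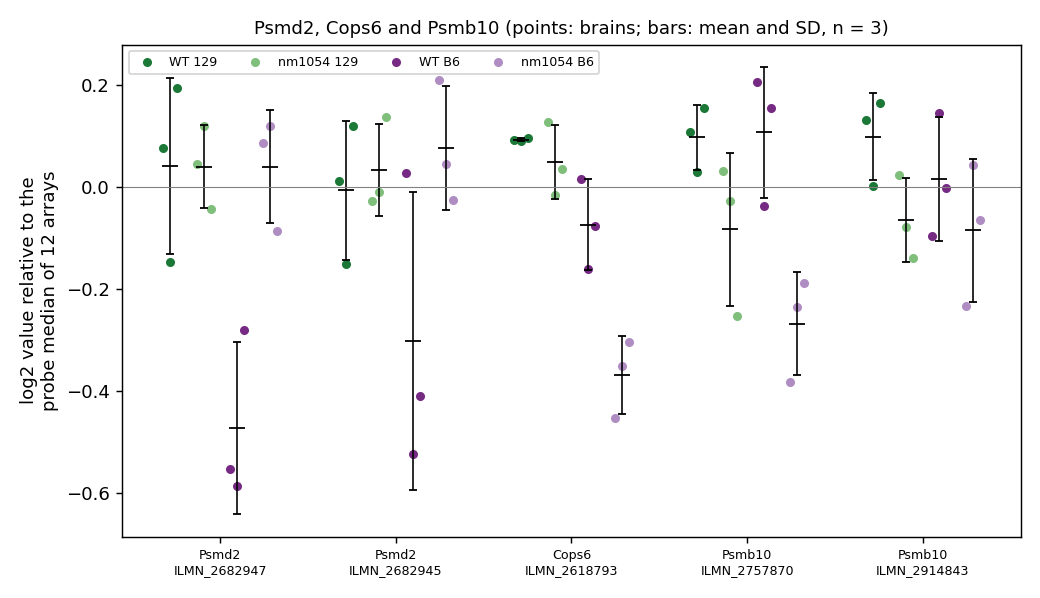
Value of each brain (log2, relative to the median of the probe over 12 arrays, y axis) for the probes of *Psmd2*, *Cops6* and *Psmb10* (x axis). Points are brains, colours are the 4 groups, and bars give the mean and SD of 3 brains. WT B6 brains are low at both *Psmd2* probes (except replicate 1 at ILMN_2682945), and *nm1054* B6 brains are low at *Cops6* and at 1 of the *Psmb10* probes.

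The genotype difference was not shown to depend on strain for any member. limma called none of the 106 probes in the interaction, against 1 of all probes (0.00221%), and 2 members (1.89%, against 4.09% of all probes) had an unadjusted p under 0.05, *Psmd2* ILMN_2682947 (-0.51, SE 0.17) and *Cops5* ILMN_1218536 (-0.42, SE 0.19). Both had an adjusted p of 1. The genotype differences at the 5 probes called between strains were between -0.29 and 0.27, and their strain differences between -4.63 and -0.62.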

How the data were processed

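RNA of 12 whole brains was measured on Illumina MouseWG-6 arrays. The authors took intensities from GenomeStudio, applied the normalization of GeneSpring GX and deposited log2 values centred on the median of each probe. The normalization between arrays and the software versions are not given in the sources used here. Symbols came from the platform annotation, updated through gene identifiers, which 91 of the 106 probes had. No filter on signal was possible. limma 3.58.1 in R 4.3.3 (with version 1.17.8 of data.table) fitted the mean of each group over all 12 arrays and 45281 probes, with 8 residual and 10.8 prior degrees of freedom and two-sided tests. The interaction was called on the adjusted p alone. Figures and motif searches used Python 3.11.15, matplotlib 3.10.9 and pandas 2.3.3. The groups held both sexes, which were not modelled. Precision is limited by the number of arrays. The fit was tested on simulated data.

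The members, 14 gene lists and tests were chosen with earlier results of these data known. Named were genes with a called probe, the 3 probes of smallest p in each genotype comparison, catalytic pairs with their immune forms, *Cops5*, and the probe of largest mean strain difference over both genotypes in each subcomplex without a call. Other genes were chosen after their values were seen. Alternatives were centring, quantile normalization, the methods' t-test, the arrays compared alone, a replicate block, array weights, robust variances, removal of less variable probes, other fold thresholds, the mean of the probes of a gene, and each array left out.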

Additional observations from a re-analysis of the deposited data

How the results depend on the processing

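The number of probes called between strains was 5 in both genotypes under most settings. Rerun on all probes, the methods' t-test called 3 in WT and 4 in *nm1054* brains after adjustment. This rerun left out *Psmb5* (adjusted p = 0.0529 and 0.0508) and, in WT, *Cops5* (adjusted p = 0.226). The paper, which filtered probes first, lists *Psmb5* among its WT differences. Leaving out 1 array gave 4 to 6 calls in WT, 5 to 6 in *nm1054* brains and 0 to 0 between genotypes or in the interaction. The WT median of 0.06 became -0.0653 with centring, -0.0560 with quantile normalization and 0.18 among more variable probes, and ran from 0.03 to 0.09 with 1 array left out. The *nm1054* median of 0.09 became -0.00438 with centring and -0.00543 with quantile normalization, and ran from 0.06 to 0.14. The genotype median was -0.00910 on B6 among more variable probes, and ran from -0.13 to -0.07 on B6 and -0.10 to -0.03 on 129. Centring moved the split of all called probes from 758 higher and 752 lower in 129 to 428 and 1035 in WT brains, and from 628 and 851 to 408 and 1117 in *nm1054* brains, and all 5 member calls were lower in 129 under both. Between genotypes on B6, array weights called 133 of all probes and no member, and without WT B6 replicate 1 the counts were 93 and 0. The causes of these changes were not tested.

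Replicate numbers showed no clear pairing of the brains. Correlations of same-numbered deviations ran from -0.24 to 0.17 over 12 pairs, 1 of them over 0.1. With so few brains in each group they cannot exclude a pairing, and the labels give replicate numbers alone. The replicate block left the member counts at 5, 5, 0, 0 and 0.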
